A study of Homo sapiens with 6 samples.

Results

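The human DEAD-box and DEAH-box RNA helicases were taken as every gene whose symbol begins with DDX or DHX followed by a digit. This gave 50 genes (34 DDX and 16 DHX genes) of the 11593 listed, carried by 121 of 28768 listed transcripts. They were measured in 6 libraries from SK-Hep1 cells, an established human line labelled hepatocellular carcinoma. In 3 libraries the labels name a complete probe set against SNHG10, a long noncoding RNA that hosts a small Cajal body RNA, and in 3 control libraries a probe set against LacZ, which is a bacterial gene absent from human cells. The method is ChIRP, in which biotinylated antisense DNA probes pull down an RNA with what is crosslinked to it, and the question was which messenger RNAs come down with SNHG10. No treatment or genotype separates the groups, and the probes of the groups came from different suppliers per the labels, so supplier and target cannot be told apart. According to the series design it was the retrieved RNA that was read, while the extraction protocol in the labels describes Trizol RNA and total RNA libraries and names no pull-down. Which fraction was read cannot be settled from the sources used here. No source says that replicates are separate cultures, and p-values therefore cover only the spread among these 6 libraries, possibly a technical one.

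DEAD-box and DEAH-box proteins use ATP to pry apart short RNA helices or to strip proteins from RNA, and are named after the amino acids of one conserved motif. DEAD-box members mostly open duplexes locally, whereas DEAH-box members move along a single strand and include the engines of the spliceosome. Between them they serve splicing, ribosome assembly, mRNA export, translation, RNA decay and the sensing of viral RNA, and dividing cells express most of them. All values are levels of helicase messenger RNA in the fraction that was read, not helicase activity. If that was the retrieved RNA, they reflect recovery with the probes as well as the level in the cells. Levels are FPKM, fragments scaled to transcript length and to the mapped total, a measure per length that can be compared between genes, and were summed over the listed transcripts of a gene. Differences are SNHG10 minus LacZ of log2(FPKM + 1), where the added 1 shrinks the differences of genes with low FPKM. They were tested with limma over all 10304 genes that reached 1 FPKM in 3 or more libraries, with a threshold of 0.05 on the Benjamini-Hochberg adjusted p. All 50 helicase genes passed that filter.

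FPKM totals ran from 268794 to 272909 in the SNHG10 libraries and from 271354 to 277118 in the LacZ libraries, and listed genes at 0 numbered 850, 897 and 859 against 842, 797 and 748. The read depth behind these values is unknown, because 159 of the transcript values lay between 0 and 0.001 FPKM, down to 5e-06, less than a whole read would give. SNHG10 itself and SCARNA13 were not analysed here, so the labels could not be checked against the targeted RNA. Of 10 hepatocyte markers, 2 (SERPINA1 and CPS1) were measured, and they summed to 1.04 to 1.72 FPKM in SNHG10 and 1.25 to 2.12 FPKM in LacZ libraries, with SERPINA1 listed at 0 in LacZ replicates 2 and 3. Albumin and the other 7 were not analysed here. Mesenchymal markers (9 of 10 measured) summed to 1038 to 1349 FPKM in SNHG10 and 1123 to 1698 FPKM in LacZ libraries, and epithelial markers (4 of 6) to 1839 to 2084 FPKM in SNHG10 and 2027 to 2133 FPKM in LacZ libraries. Endothelial markers (3 of 10) summed to 42.4 to 51.2 FPKM in SNHG10 and 46.4 to 61.8 FPKM in LacZ libraries, and leukocyte markers (2 of 6) to 36.8 to 56.1 FPKM in SNHG10 and 43.1 to 56.5 FPKM in LacZ libraries. All 5 sums overlapped between probe sets. Both hepatocyte markers were low, and the mesenchymal sum was mostly vimentin (VIM, 833 to 1202 FPKM in SNHG10 and 953 to 1522 FPKM in LacZ libraries), with ZEB1 listed at 0 in SNHG10 replicates 1 and 2 and LacZ replicates 1 and 2. Within the lists, the endothelial marker EGFL7 read 8.30, 7.45 and 8.18 FPKM with SNHG10 probes, against 25.98, 18.8 and 14.03 FPKM with LacZ probes. The other endothelial markers measured, ENG and ROBO4, had positive log2 differences of 0.04 ± 0.19 (SE) and 0.23 ± 0.36 (SE). EGFL7, the keratin KRT8 and the hepatocyte marker CPS1 lay lower in every SNHG10 library. EGFL7 and KRT8 did not pass the test, and CPS1 was too low to be tested. The part of these markers in the helicase values was not tested.

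No helicase mRNA passed the test in either direction. Of the 50 genes, 0 passed as higher and 0 as lower with SNHG10 probes, where 0% of all genes tested were called in each direction, and the smallest adjusted p of a helicase was 0.847 (limma). At an unadjusted p under 0.05 there were 3 helicases (6%), against 5.42% of all genes tested. DHX15 was the 1 with a positive difference (background 2.1%), and DDX11 and DHX34 were the 2 with a negative one (background 3.32%). limma without trend and limma with robust eBayes each called 0 as well, with 2 helicases under 0.05. The share of helicases near the threshold was thus close to that of genes at large. A typical member was resolved to ± 0.71 on the log2 scale (median distance from the estimate to either end of the 95% interval), so differences smaller than about that size could not be told from the spread of these libraries. That interval is for a single gene without adjustment. The adjusted threshold is stricter, and even the log2 difference of -1.88 of DDX11 was not called, so larger differences may be missed too. In such bulk libraries fewer cells carrying an mRNA and less of it per cell cannot be told apart. Nor can either be told from lower recovery with the probes, if retrieved RNA was read.

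**Figure D1:**
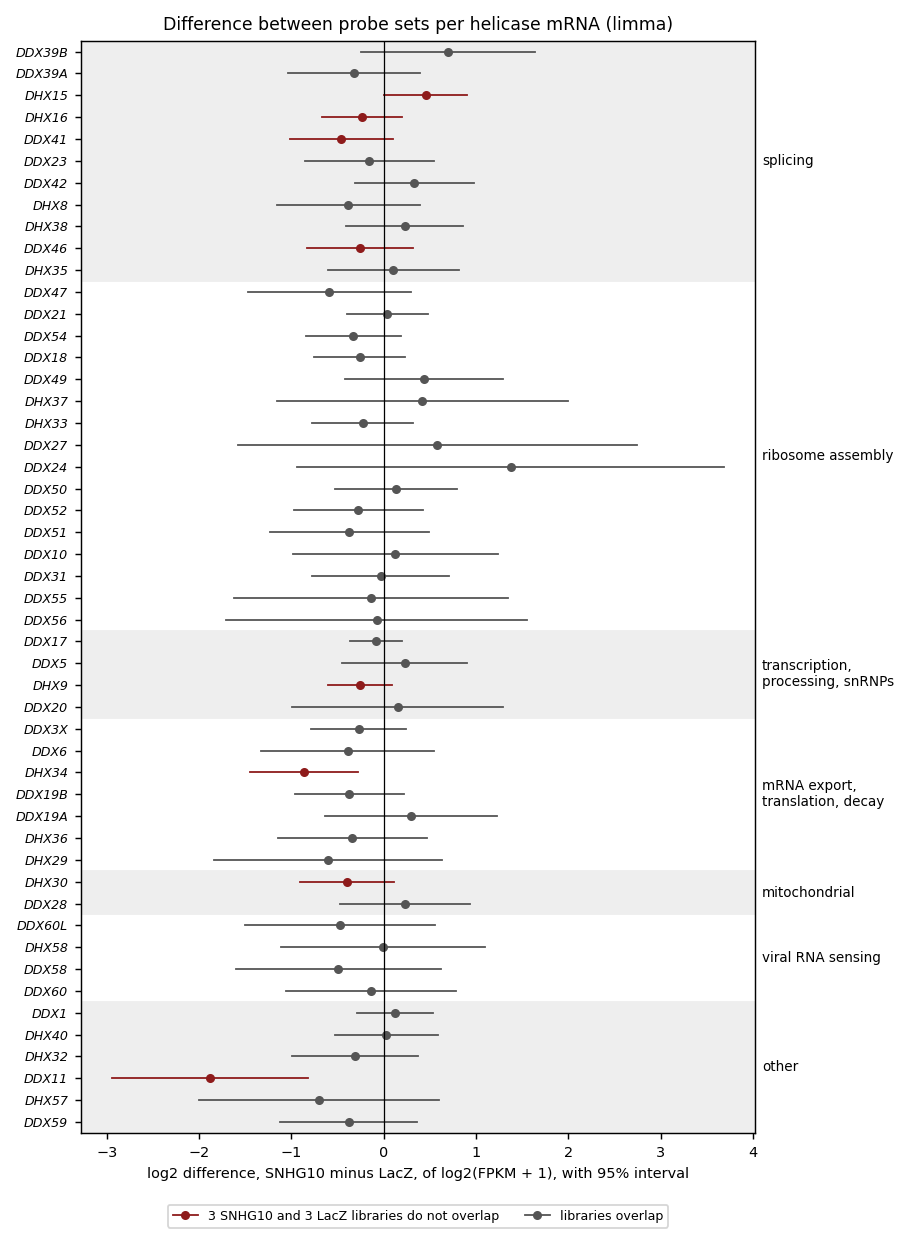
Log2 difference (SNHG10 minus LacZ, of log2(FPKM + 1)) for each of the 50 helicase genes on the horizontal axis, with its 95% interval from limma, grouped by role and ordered by mean level. The intervals of 3 genes (DHX15, DDX11 and DHX34) do not include 0, and none of the 50 passed after adjustment over all genes tested.

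Of the 50 differences, 32 (64%) were negative and 18 positive, near the 56.7% of all genes tested that were negative. Their median was -0.19, against -0.05 over all genes tested, and it was -0.11 without SNHG10 replicate 2. Scaling by median ratios moved the median of all genes to -0.002, and left the helicases at -0.14 with 30 negative and 20 positive. The differences ran from -1.88 for DDX11 to 1.38 for DDX24, and 48 of 50 lay within 1 log2 unit of 0. By library, the median deviation of a helicase from its own mean over the 6 libraries was 0.038, -0.165 and -0.028 for SNHG10 replicates 1 to 3 and 0.025, 0.132 and 0.092 for LacZ replicates 1 to 3. SNHG10 replicate 1 lay above LacZ replicate 1, so the probe sets overlapped. For all genes tested the same medians were -0.016, -0.014 and 0.012 for SNHG10 replicates 1 to 3 and 0.033, 0.049 and 0.066 for LacZ replicates 1 to 3, which did not overlap. The spread within probe sets, as the median SD, was 0.32 for helicases and 0.40 for all genes tested.

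Together the 50 genes held 0.363%, 0.298% and 0.304% of all FPKM with SNHG10 probes, against 0.317%, 0.324% and 0.354% with LacZ probes. SNHG10 replicate 1 was the highest of the 6 and SNHG10 replicate 2 the lowest, so the probe sets overlapped on both sides. The SNHG10 mean share was 0.322% ± 0.0358 and the LacZ mean share 0.332% ± 0.0200 (SD, n = 3 each). Of the helicase sum, the 5 most abundant genes (DDX17, DDX5, DDX39B, DDX3X and DHX9) made up 45.8%, 46.1% and 44.8% for SNHG10 replicates 1 to 3 and 40.5%, 40.9% and 43.4% for LacZ replicates 1 to 3. Each SNHG10 library thus had a higher share than any LacZ library, a difference that was not tested.

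**Figure D2:**
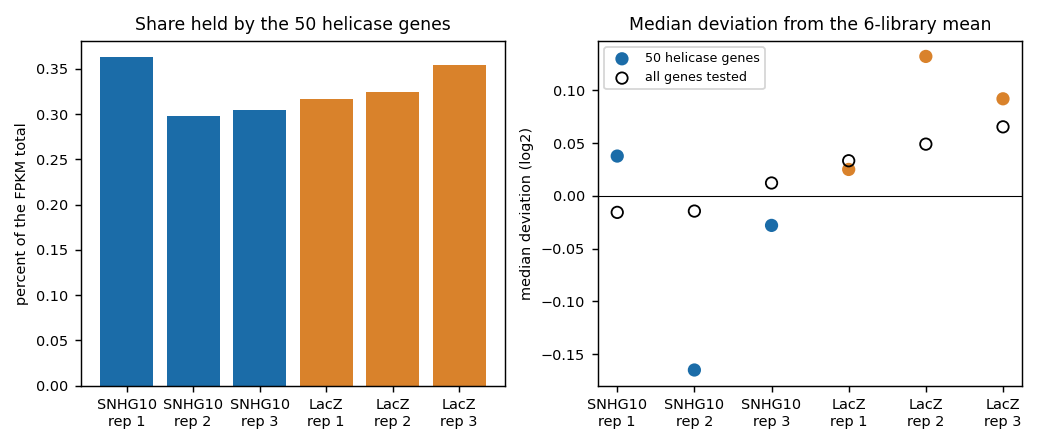
Left, percent of each library's FPKM total held by the 50 helicase genes (bars, from 0). Right, median over genes of the deviation of log2(FPKM + 1) from the gene's mean over the 6 libraries, for helicases (filled) and all genes tested (open circles). The SNHG10 and LacZ libraries overlap in both helicase measures, with SNHG10 replicate 1 highest in share and SNHG10 replicate 2 lowest in both.

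In 8 helicases (16%) the values of both probe sets did not overlap, against 11.4% of all genes tested. DHX15 was the 1 above in SNHG10 libraries (2%, background 4.22%), and DDX11, DHX34, DDX41, DHX30, DHX9, DHX16 and DDX46 were the 7 below (14%, background 7.21%). With median-ratio scaling 6 of the 8 stayed separated (12% against 11.0% of all genes), DDX41 and DHX16 being lost. With quantile normalization 7 did (14% against 10.8% of all genes), DHX16 being lost. Those below numbered 5 and 6 (background 5.34% and 5.32%), and DHX15 was the 1 above each time (background 5.70% and 5.50%). With 1 library left out, 9 (18%, without SNHG10 replicate 2) to 16 (32%, without SNHG10 replicate 3) helicases were separated, against 20.9% to 21.8% of all genes tested. Of these, 7 of the 9 and 14 of the 16 lay below, where 12.7% and 13.4% of all genes tested lay below. With a filter at 5 FPKM, 8 of 35 helicases (22.9%) were separated, against 11.9% of all genes tested. For each of the 8 the two-sided exact permutation p was 0.1, the smallest that 3 against 3 libraries can give.

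**Figure D3:**
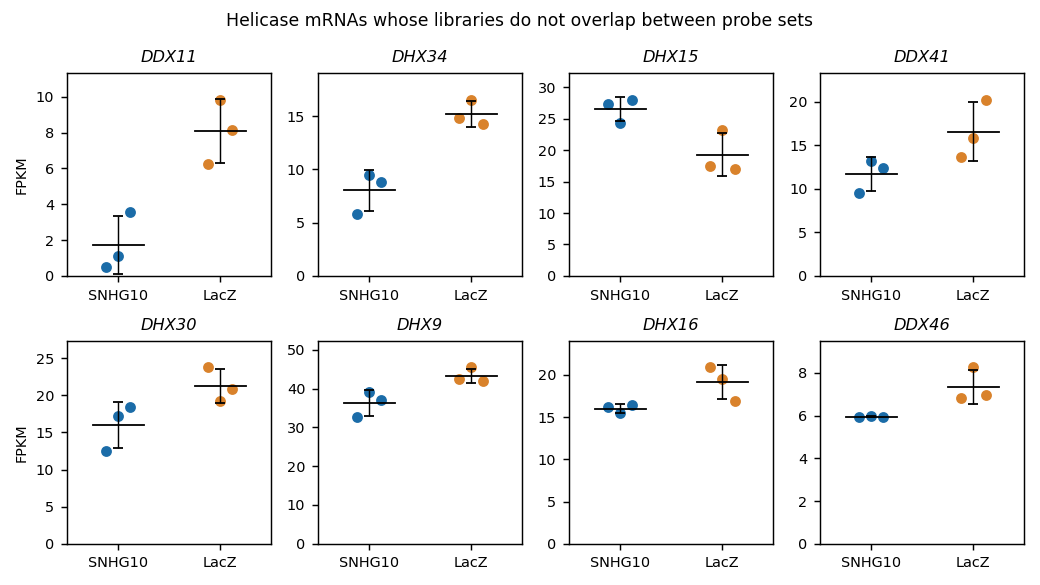
FPKM of the 8 helicase mRNAs whose libraries do not overlap between probe sets, in order of limma p (points, libraries; horizontal lines, means; bars, SD, n = 3). As a ratio of means, DDX11 and DHX34 are the farthest apart, with SNHG10 means of 1.72 and 8.03 FPKM and LacZ means of 8.08 and 15.2 FPKM, while in DDX41 and DHX16 the nearest libraries of both probe sets almost touch.

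DDX11, a DNA helicase that helps sister chromatids stay together, read 0.486, 1.12 and 3.55 FPKM with SNHG10 probes, against 6.24, 9.83 and 8.15 FPKM with LacZ probes. The listed transcripts of DDX11 span chromosome 12, 31226779 to 31257725, plus strand, in the hg19 coordinates of the files. Every SNHG10 library lay below every LacZ library, the means being 1.72 ± 1.62 FPKM in SNHG10 and 8.08 ± 1.79 FPKM in LacZ libraries (SD, n = 3 each). Its log2 difference was -1.88 ± 0.46 (SE), with an unadjusted limma p of 0.00372 and an adjusted p of 0.847, the smallest among helicases but only the 45th smallest p of all genes tested. The sum was carried by different transcripts in different libraries: DDX11-201 was the highest listed one in SNHG10 replicates 1 and 2, DDX11-207 in SNHG10 replicate 3, DDX11-223 in LacZ replicates 1 and 2, and DDX11-229 in LacZ replicate 3. DDX11 has a near copy in the genome, DDX12P, so the authors' estimation could split its reads and its level is uncertain.

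DHX34, which acts in nonsense-mediated decay of faulty mRNAs, read 5.83, 9.47 and 8.80 FPKM with SNHG10 probes, against 14.8, 16.5 and 14.2 FPKM with LacZ probes. The listed transcripts of DHX34 span chromosome 19, 47852538 to 47885961, plus strand. The lowest LacZ library was above the highest SNHG10 library by a wide margin, and its log2 difference was -0.86 ± 0.25 (SE) (limma adjusted p = 0.885). A single transcript was listed for it. DHX34 ranked 109th by p among all genes tested, and the difference ran from -0.98 to -0.64 over the 15 alternatives. As its probe sets did not overlap, leaving out a library could not turn the sign.

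Among the 11 splicing helicases, 0 passed, 4 were separated (36.4%, against 11.4% of all genes tested), and the median difference was -0.15. Of the 4, 1 lay above (background 4.22%) and 3 below (background 7.21%) in SNHG10 libraries, and the role itself was not tested. DHX15, which takes the spent spliceosome off the intron lariat, read 27.3, 24.4 and 28.01 FPKM with SNHG10 probes, against 17.5, 23.2 and 17.1 FPKM with LacZ probes. The listed transcripts of DHX15 span chromosome 4, 24529098 to 24586173, minus strand. All SNHG10 libraries lay above all LacZ libraries, with LacZ replicate 2 close to them, and the log2 difference was 0.45 ± 0.19 (SE) (limma adjusted p = 0.885). DDX41, linked to the catalytic spliceosome and to DNA sensing, read 9.52, 13.2 and 12.4 FPKM with SNHG10 probes, against 13.6, 15.8 and 20.2 FPKM with LacZ probes, with SNHG10 replicate 2 and LacZ replicate 1 close together (log2 difference -0.46 ± 0.24 (SE)). DHX16, the motor of the first catalytic step, read 16.1, 15.4 and 16.4 FPKM with SNHG10 probes, against 20.9, 19.5 and 16.9 FPKM with LacZ probes. Its SNHG10 libraries were tightly grouped just under LacZ replicate 3.

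DDX46, which opens the way for the U2 snRNP at the branch site, read 5.95, 5.96 and 5.95 FPKM with SNHG10 probes, against 6.82, 8.25 and 6.95 FPKM with LacZ probes. The SNHG10 values were nearly equal, and the log2 difference was -0.26 ± 0.25 (SE). DDX39B, which loads export factors on spliced mRNA and was the third most abundant helicase, read 88.4, 86.8 and 68.8 FPKM with SNHG10 probes, against 25.4, 51.6 and 92.7 FPKM with LacZ probes. LacZ replicate 3 was the highest of the 6 and LacZ replicate 1 the lowest, so the groups overlapped, and the difference of 0.69 ± 0.41 (SE) was 0.22 without LacZ replicate 1 and 1.14 without LacZ replicate 3. Its close paralog DDX39A read 40.6, 20.8 and 18.98 FPKM with SNHG10 probes, against 37.4, 34.2 and 25.2 FPKM with LacZ probes, with SNHG10 replicate 1 the highest and the other SNHG10 libraries the lowest.

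The sum of DDX39A and DDX39B was 129, 108 and 87.8 FPKM with SNHG10 probes, against 62.7, 85.7 and 118 FPKM with LacZ probes, and it overlapped too. The remaining 5 splicing members were DDX23, which readies the spliceosome for activation, DHX38, which acts at the second catalytic step, DHX8, which releases the spliced mRNA, DDX42 and DHX35. Their means over the 6 libraries ran from 4.41 FPKM (DHX35) to 14.0 FPKM (DDX23), and their differences from -0.38 (DHX8) to 0.33 (DDX42). All 5 overlapped between probe sets.

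**Figure D4:**
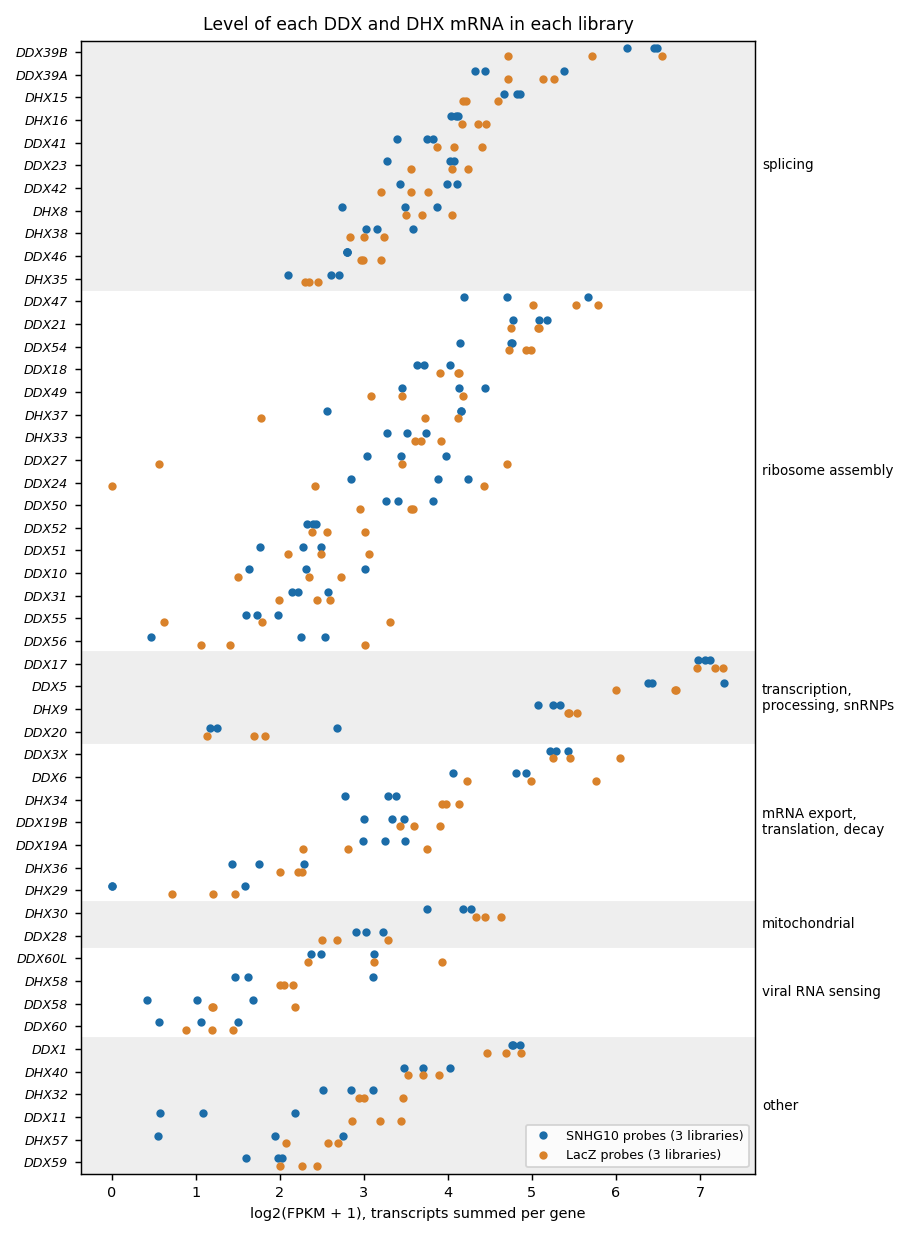
Level of each of the 50 helicase mRNAs in each library, as log2(FPKM + 1) of the transcript sum, grouped by role and ordered by mean; SNHG10 libraries are drawn above LacZ libraries in each row. DDX17 and DDX5 stand at the top, DHX29 and DDX60 at the bottom, and DDX24, DDX27, DHX37, DDX55 and DDX56 show the widest scatter within a probe set.

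The 16 ribosome-assembly helicases work in the nucleolus on the ribosomal RNA precursor. Of these, 0 passed and 0 were separated (background 11.4%), and their median difference of -0.05 was close to that of all genes tested. The most abundant, DDX47, a pre-rRNA processing factor, read 49.7, 25.2 and 17.3 FPKM with SNHG10 probes, against 45.1, 54.3 and 31.3 FPKM with LacZ probes. SNHG10 replicate 1 lay among the LacZ libraries, and the difference of -0.59 ± 0.38 (SE) was -0.26 without SNHG10 replicate 3 and -0.99 without SNHG10 replicate 1. DDX21, which couples ribosomal gene transcription to rRNA processing, was steady at 32.8, 35.1 and 26.3 FPKM with SNHG10 probes, against 32.7, 25.9 and 32.9 FPKM with LacZ probes. The difference was 0.04 ± 0.19 (SE), and its paralog DDX50 read 13.1, 8.64 and 9.63 FPKM with SNHG10 probes, against 6.78, 10.99 and 10.8 FPKM with LacZ probes, also without order by probe set.

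DDX54 read 26.2, 16.7 and 25.9 FPKM with SNHG10 probes, against 30.8, 25.5 and 29.5 FPKM with LacZ probes, and SNHG10 replicates 1 and 3 lay just above LacZ replicate 2 (log2 difference -0.33 ± 0.22 (SE), and -0.13 without SNHG10 replicate 2). DDX24 was listed at 0 in LacZ replicate 1 and otherwise ranged from 4.35 to 20.5 FPKM; its values were 13.8, 6.23 and 17.8 FPKM with SNHG10 probes, against 0, 4.35 and 20.5 FPKM with LacZ probes. The largest positive difference of any helicase, 1.38 ± 1.00 (SE), was 0.24 without that library and 2.45 without LacZ replicate 3. The other 11 members were DDX10, DDX18, DDX27, DDX31, DDX49, DDX51, DDX52, DDX55, DDX56, DHX33 and DHX37. They averaged from 3.13 FPKM (DDX56) to 14.3 FPKM (DDX18), with differences from -0.37 (DDX51) to 0.58 (DDX27).

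DDX17 and DDX5, paralogs that assist transcription, splicing and microRNA processing, were the top 2 helicase mRNAs and together held 0.107%, 0.0772% and 0.0820% of all FPKM with SNHG10 probes, against 0.0901%, 0.0821% and 0.0801% with LacZ probes. DDX17 read 132, 125 and 138 FPKM with SNHG10 probes, against 144, 124 and 154 FPKM with LacZ probes. The listed transcripts of DDX17 span chromosome 22, 38879445 to 38902342, minus strand. The probe sets were interleaved and the log2 difference was -0.09 ± 0.12 (SE), the narrowest interval of any helicase. DDX5 read 155, 82.2 and 85.5 FPKM with SNHG10 probes, against 103, 104 and 63.2 FPKM with LacZ probes. SNHG10 replicate 1 stood above the other 5 libraries, and the difference of 0.23 ± 0.29 (SE) was -0.07 without it and -0.01 without LacZ replicate 3.

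DHX9, which unwinds long duplexes in the nucleus, read 32.6, 39.2 and 36.99 FPKM with SNHG10 probes, against 42.5, 45.4 and 41.96 FPKM with LacZ probes. The listed transcripts of DHX9 span chromosome 1, 182808504 to 182856886, plus strand. Its SNHG10 libraries all lay below the LacZ ones, with a difference of -0.25 ± 0.15 (SE) and an adjusted p of 0.928 (limma). DDX20, a part of the SMN complex that assembles spliceosomal snRNPs and is found in Cajal bodies, was low, from 1.20 to 5.39 FPKM over the 6 libraries. SNHG10 replicate 1 held its highest value, and the log2 difference was 0.15 ± 0.49 (SE).

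Of 7 helicases of mRNA export, translation and decay, 0 passed and the median difference was -0.37. In 6 the difference was negative (85.7%, against 56.7% of all genes tested) and in 1 positive. DHX34, described above, belongs to this role and was the 1 separated (14.3%, against 11.4% of all genes tested), below in SNHG10 libraries (background 7.21%). The role itself was not tested. DDX3X, which helps ribosomes start on structured mRNAs, read 38.2, 36.3 and 41.9 FPKM with SNHG10 probes, against 37.02, 42.9 and 65.1 FPKM with LacZ probes. LacZ replicate 3 stood apart at the top, and the difference of -0.27 ± 0.22 (SE) was -0.04 without it. DDX6, which represses translation and promotes decapping in P-bodies, read 27.1, 15.7 and 29.5 FPKM with SNHG10 probes, against 17.8, 30.8 and 53.4 FPKM with LacZ probes, again with LacZ replicate 3 highest. Its difference of -0.39 ± 0.40 (SE) was -0.01 without that library.

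DDX19A and DDX19B, neighbouring paralogs on chromosome 16 that release export factors at the nuclear pore, had differences of 0.30 ± 0.40 (SE) and -0.37 ± 0.25 (SE). That of DDX19A was -0.04 without LacZ replicate 3. DDX19A read 10.2, 6.93 and 8.56 FPKM with SNHG10 probes, against 12.5, 6.01 and 3.84 FPKM with LacZ probes, and DDX19B 9.07, 7.03 and 10.1 FPKM with SNHG10 probes, against 11.1, 13.97 and 9.82 FPKM with LacZ probes. Both overlapped between probe sets, and the pair summed to 19.3, 13.96 and 18.7 FPKM with SNHG10 probes, against 23.6, 19.98 and 13.7 FPKM with LacZ probes. DHX36, which resolves G-quadruplexes, ran from 1.70 to 3.88 FPKM, its log2 difference being -0.34 ± 0.35 (SE). DHX29, which aids scanning through stable leaders, was the lowest helicase, with 0, 0 and 2.01 FPKM with SNHG10 probes, against 0.652, 1.78 and 1.31 FPKM with LacZ probes. It was listed at 0 in SNHG10 replicates 1 and 2, and SNHG10 replicate 3 was the highest of all 6.

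Both mitochondrial helicases serve the assembly of mitochondrial ribosomes. DHX30 read 12.5, 17.2 and 18.4 FPKM with SNHG10 probes, against 23.8, 19.2 and 20.8 FPKM with LacZ probes. The listed transcripts of DHX30 span chromosome 3, 47844418 to 47891683, plus strand. The highest SNHG10 value lay just under the lowest LacZ value, and the difference was -0.40 ± 0.22 (SE) (limma adjusted p = 0.910). Without SNHG10 replicate 1 it was -0.24. DDX28 read 7.14, 8.41 and 6.50 FPKM with SNHG10 probes, against 5.39, 4.69 and 8.74 FPKM with LacZ probes, overlapping, with a difference of 0.23 ± 0.30 (SE) that was 0.08 without LacZ replicate 2.

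Of the 4 sensors of viral RNA 0 passed. Their means over the 6 libraries ran from 1.21 FPKM (DDX60) to 7.07 FPKM (DDX60L), where the median over all genes tested was 7.80 FPKM. DDX60L, an interferon-induced family member, read 7.69, 4.60 and 4.17 FPKM with SNHG10 probes, against 7.69, 14.2 and 4.06 FPKM with LacZ probes, and its neighbour DDX60 0.478, 1.09 and 1.83 FPKM with SNHG10 probes, against 0.848, 1.73 and 1.30 FPKM with LacZ probes. DHX58, known as LGP2, read 2.07, 1.77 and 7.63 FPKM with SNHG10 probes, against 3.16, 3.01 and 3.47 FPKM with LacZ probes, where SNHG10 replicate 3 stood out at the top. DDX58, which encodes RIG-I, ran from 0.336 to 3.56 FPKM with the largest negative difference of the 4, -0.49 ± 0.48 (SE). The difference of DHX58 was -0.01 ± 0.48 (SE) and its sign was positive with median-ratio and quantile scaling. No order by probe set was seen in any of the 4.

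The remaining 6 genes, DDX11 among them, share no single role. DDX1, a part of the tRNA ligase complex, was the most abundant of them at 26.2, 26.4 and 27.9 FPKM with SNHG10 probes, against 24.9, 28.3 and 21.1 FPKM with LacZ probes. All 6 libraries were close, and the log2 difference was 0.12 ± 0.18 (SE). DHX40 read 15.3, 10.1 and 12.04 FPKM with SNHG10 probes, against 12.02, 10.5 and 13.9 FPKM with LacZ probes, with interleaved probe sets. DHX32, DHX57 and DDX59 averaged 7.05, 3.79 and 3.22 FPKM, with negative differences of -0.31 ± 0.29 (SE), -0.70 ± 0.56 (SE) and -0.38 ± 0.32 (SE). The germline helicases DDX4, DDX43 and DDX53 were not analysed here.

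Transcript rows added no call. Of the 121 listed helicase transcripts, 75 passed the filter and 0 passed the threshold, against 0.0903% of 16618 transcript rows (limma), of which 0.0481% were called higher and 0.0421% lower. There were 5 (6.67%) under an unadjusted p of 0.05, where the background was 5.66%, with 2 positive (background 2.59%) and 3 negative (background 3.06%), and limma without trend and robust eBayes gave 0 calls with 4 and 5 under 0.05. In 13 rows (17.3%) the probe sets did not overlap, against 10.5% of all transcript rows, 2 above (background 4.48%) and 11 below (background 6.06%) in SNHG10 libraries. The smallest p was that of DDX5-204, a minor transcript of DDX5, at 0.0343, 0.00880 and 0.315 FPKM with SNHG10 probes, against 5.23, 4.35 and 2.33 FPKM with LacZ probes. It lay near 0 in every SNHG10 library, with a log2 difference of -2.11 ± 0.42 (SE) and an adjusted p of 0.244 (limma), while the DDX5 sum overlapped between probe sets. DDX5-204 passed the filter only through its LacZ values, so the filter favoured this direction and its p gives no support. It is counted among the 5 and the 13 rows above.

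DDX27-207 was the transcript with the largest positive difference among those separated, 2.44 ± 0.64 (SE), and read 7.20, 14.8 and 9.89 FPKM with SNHG10 probes, against 3.88, 0.481 and 0.212 FPKM with LacZ probes. Among LacZ libraries DDX27-207 reached 1 FPKM in replicate 1 only, so it passed the filter through its SNHG10 values and its p gives no support. It was the only transcript of DDX27, a factor of large ribosomal subunit assembly, above 0 in the SNHG10 libraries, while DDX27-205 led in LacZ replicate 1 and DDX27-206 in LacZ replicate 3. The DDX27 sum was 7.20, 14.8 and 9.89 FPKM with SNHG10 probes, against 9.93, 0.481 and 25.1 FPKM with LacZ probes. LacZ replicates 2 and 3 were the lowest and the highest of the 6, so the sum had no order by probe set. DDX42-208 read 0, 2.30 and 5.26 FPKM with SNHG10 probes, against 7.93, 8.24 and 6.33 FPKM with LacZ probes (log2 difference -1.62 ± 0.70 (SE), and -0.90 without SNHG10 replicate 1), and DDX41-208 8.41, 6.69 and 10.7 FPKM with SNHG10 probes, against 12.2, 11.7 and 20.1 FPKM with LacZ probes. Both lay lower in all SNHG10 libraries, while DDX42, which binds the U2 snRNP, had an overlapping sum.

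DDX1 showed how far the values of single transcripts can shift under a steady sum. DDX1-201 and DDX1-202 span almost the same stretch of chromosome 2 (15731745 to 15771233 and 15731302 to 15771235). The program that estimated FPKM is not given, so how reads were split between them is uncertain. DDX1-202 read 0, 13.5 and 0 FPKM with SNHG10 probes, against 24.1, 27.7 and 20.4 FPKM with LacZ probes, and DDX1-201 read 26.2, 0 and 27.9 FPKM with SNHG10 probes, against 0, 0 and 0 FPKM with LacZ probes. The first was the top transcript in all LacZ libraries and the second in SNHG10 replicates 1 and 3, with DDX1-202 and DDX1-208 sharing SNHG10 replicate 2. The log2 difference of DDX1-202 was -3.35 ± 1.06 (SE) with an adjusted p of 0.680 (limma), although the gene sum stayed within 21.1 to 28.3 FPKM. DDX1-202 passed the filter through its LacZ values, so its p gives no support. Of 28 helicases with several listed transcripts, 8 (28.6%) had the same top transcript in all 6 libraries, against 27.3% of 6879 such genes tested. In 0 helicases was 1 transcript on top in all SNHG10 libraries and 1 other in all LacZ libraries, as in 0.698% of those genes. DDX11 and DDX42 shared no top transcript between probe sets, but their top transcript also changed among the SNHG10 libraries. At least 1 library listed 56.2% of helicase transcripts at 0, against 61.4% of all transcripts.

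**Figure D5:**
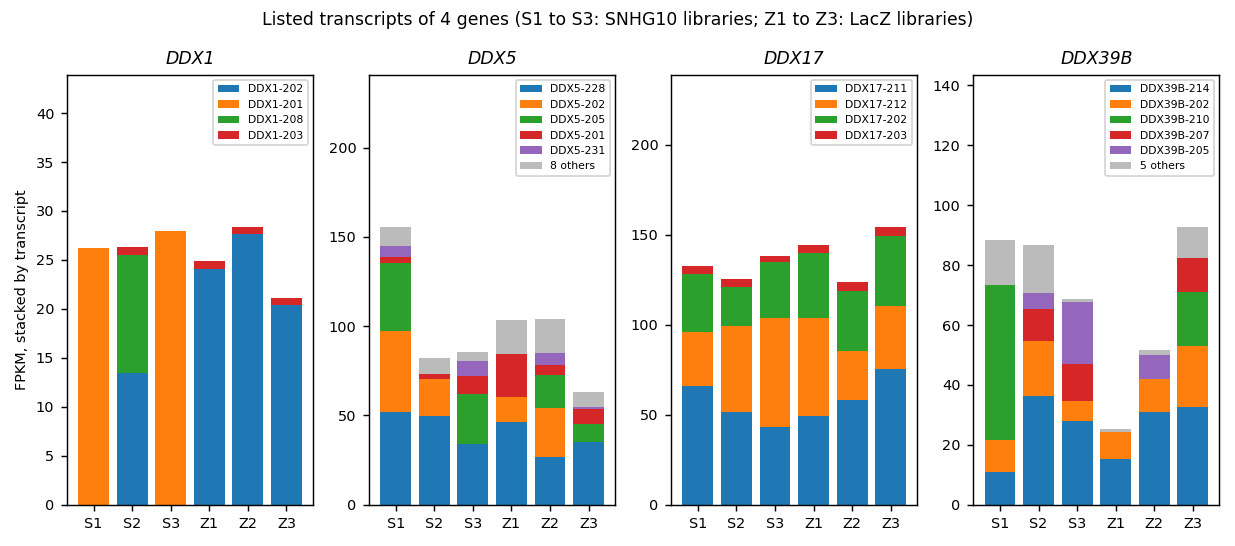
FPKM of the listed transcripts of DDX1, DDX5, DDX17 and DDX39B stacked per library (genes chosen after their values were seen). In DDX1 the sum stays between 21.1 and 28.3 FPKM while its top transcript changes, and in DDX39B the top transcript is DDX39B-214 in all libraries but SNHG10 replicate 1.

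The loci spread over 18 chromosomes, with 7 genes each on chromosomes 12 and 17, and 10 of the 50 genes overlap a listed gene on the opposite strand. The sources used here do not say whether strand was used, so reads of such pairs may not be told apart. The longest overlaps were DHX32 with BCCIP (17359 bases) and DDX27 with ZNFX1 (6130 bases), and DDX5 shares 943 bases with CEP95. Of the 8 separated genes, only DHX16 had such a partner, C6orf136, over 92 bases.

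Related genes outside the family gave no call either. Of 18 tested helicases of the same superfamily under other names, such as the translation factors EIF4A1 and EIF4A2, 0 passed, 9 were positive and 9 negative, and the median difference was 0.002. EIF4A2 read 53.9, 24.4 and 24.2 FPKM with SNHG10 probes, against 29.3, 19.6 and 14.6 FPKM with LacZ probes, and HELZ 5.09, 5.43 and 5.30 FPKM with SNHG10 probes, against 10.2, 7.36 and 5.49 FPKM with LacZ probes, the 2 with the smallest p in that list. HELZ lay lower in all SNHG10 libraries, and EIF4A2 overlapped. In that list 3 genes (16.7%) were separated, against 11.4% of all genes tested. YTHDC2 was the 1 above (background 4.22%), and HELZ and ASCC3 were the 2 below (background 7.21%). Of 21 tested genes of G-patch proteins, which switch on DEAH-box helicases, 0 passed and 1 was under an unadjusted p of 0.05, RBM5, a splicing regulator. It read 7.30, 6.60 and 2.12 FPKM with SNHG10 probes, against 10.6, 21.3 and 19.5 FPKM with LacZ probes, lower in all SNHG10 libraries (log2 difference -1.59 ± 0.45 (SE), limma adjusted p = 0.864). GPANK1 read 7.70, 3.98 and 8.93 FPKM with SNHG10 probes, against 8.60, 12.9 and 15.2 FPKM with LacZ probes. Of the 21, 2 (9.52%) were separated, RBM5 below and GPATCH1 above in SNHG10 libraries.

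Of 19 genes of MIF4G and other DEAD-box cofactors, 0 passed and the median was -0.13. Differences were positive in 5 and negative in 14 (73.7%, against 56.7% of all genes tested). In 2 (10.5%) the probe sets did not overlap, both below in SNHG10 libraries (background 7.21%). CWC22, which brings a DEAD-box protein to the spliceosome, read 2.77, 4.35 and 1.30 FPKM with SNHG10 probes, against 7.54, 4.45 and 4.91 FPKM with LacZ probes, every SNHG10 value lying below the LacZ ones. CNOT1, the scaffold of the deadenylase that recruits DDX6, read 46.2, 53.03 and 50.1 FPKM with SNHG10 probes, against 57.5, 52.3 and 72.96 FPKM with LacZ probes, overlapping. Of 7 tested SMN complex genes, partners of DDX20, 0 passed, with 3 positive and 4 negative differences. GEMIN8 read 8.65, 7.94 and 3.34 FPKM with SNHG10 probes, against 1.14, 2.63 and 4.67 FPKM with LacZ probes, and GEMIN6 3.93, 1.08 and 3.03 FPKM with SNHG10 probes, against 4.13, 2.88 and 10.2 FPKM with LacZ probes, both overlapping. Of 14 tested interferon and RNA-sensing genes 0 passed, with 6 positive and 8 negative differences, and 1 (7.14%) was separated, below in SNHG10 libraries. OAS2, which makes the activator of an antiviral RNase, read 1.72, 2.44 and 1.02 FPKM with SNHG10 probes, against 0.549, 0.311 and 1.62 FPKM with LacZ probes, overlapping between probe sets. Adjusted limma p of the genes given with values from these lists ran from 0.864 to 0.928.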

How the data were processed

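RNA was read in 6 libraries, 3 per probe set, grouped and numbered by their titles. The values are FPKM per transcript as deposited by the authors, named so per the file headers, and all listed rows are protein-coding transcripts. The submitters' processing notes name Bowtie2 2.1.0 and the hg19 build, and the program that estimated FPKM is not given in the sources used here. FPKM are relative to each library's total, the depth is unknown, and no interval from counting error was computed. FPKM were summed over transcripts per gene symbol, filtered at 1 FPKM in at least 3 libraries, and fitted as log2(FPKM + 1) with limma 3.58.1 in R 4.3.3 (lmFit, eBayes with trend), with Benjamini-Hochberg adjustment over all genes or transcript rows tested. The fit was also run on simulated data as a check of its code, and no result here rests on that run. Single values had a two-sided exact permutation test over 20 assignments (scipy 1.17.1, pandas 2.3.3 in Python 3.11.15).

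The helicase family, the roles, the gene lists and the tests were chosen with earlier results of these data known, so no pattern here is independent support of those results. Values by library are given for helicases past the threshold, those whose groups do not overlap, the 10 with the smallest p, the 5 most abundant, the 2 most abundant per role, paralog pairs, those listed at 0, the separated transcripts with the smallest p (up to 5 per direction) and the 2 genes per list with the smallest p. One gene that this rule names is not reported here. The values of DDX27, DDX1-201 and single marker genes, and the remaining members' ranges, were added after their values were seen. The fit was repeated with a replicate block, without each library in turn (with the filter set on all 6), with quantile or median-ratio scaling, with robust eBayes, without the trend, with 0.1 or 5 as pseudocount, with no filter or one at 5 FPKM, and for the share with the 10 most abundant genes left out of the total.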

Additional observations from a re-analysis of the deposited data

How the results depend on the processing

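No helicase gene and no helicase transcript row passed the threshold in any of the 15 alternatives. Helicases under an unadjusted p of 0.05 numbered 2 to 4, DDX11 and DHX34 being among them each time, and the median difference ran from -0.25 with a pseudocount of 0.1 to -0.11 without SNHG10 replicate 2. The difference in share was -0.00997 percentage points over all libraries. Its lowest value was -0.0306 (SNHG10 replicate 1 left out), and its sign turned with 0.0018 (SNHG10 replicate 2 left out) and 0.00136 (LacZ replicate 3 left out). Separated helicases numbered 9 to 16 (18% to 32%) with 1 library left out (15 without SNHG10 replicate 1, 16 without SNHG10 replicate 3, 14 without LacZ replicate 1 or LacZ replicate 3), where 20.9% to 21.8% of all genes tested were separated, since fewer libraries overlap less often.

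With the replicate number as a block, 0 helicases were called and 2 were under 0.05, DHX15 being lost. Across genes, the deviations of libraries sharing a number had correlations of 0.015, 0.012 and 0.016. None reached 0.1, and the libraries were treated as sharing only a number, although every library correlated best with its own, a hint from the data and not the design. Among the genes named by the rule above, 16 of the alternative values turned sign, each time without a call. Sign changes of the other helicases were not counted gene by gene. Positive helicase differences numbered from 14 (without LacZ replicate 2) to 21 (quantile normalization), against 18 in the main fit. Over leave-one-out runs DDX19A ran from -0.039 to 0.702, DDX21 from -0.0705 to 0.158 (-0.0431 without SNHG10 replicate 2), DDX5 from -0.0678 to 0.388 (-0.00879 without LacZ replicate 3), DDX50 from -0.0709 to 0.248 (-0.0265 without SNHG10 replicate 1), DDX60 from -0.365 to 0.105, DHX40 from -0.116 to 0.158 (-0.0619 without LacZ replicate 2) and DHX58 from -0.530 to 0.291 (0.0353 without LacZ replicate 3 and 0.216 without SNHG10 replicate 1). DHX58 was 0.0359 with median-ratio scaling, 0.0643 with quantile normalization and 0.0424 with a pseudocount of 5. The cause was not tested. Unknown depth limits what the low values can show.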

Other observations

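Of the 16 DHX genes, 5 (31.3%) had probe sets that did not overlap (1 above and 4 below in SNHG10 libraries), against 3 of 34 DDX genes (8.82%, all below) and 11.4% of all genes tested (4.22% above and 7.21% below). Within probe sets, the SD of log2(FPKM + 1) had a median of 0.25 over DHX and 0.41 over DDX genes. The split was looked at after the values were seen, and the difference between both families was not tested.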
